A study of Mus musculus with 9 samples.

Results

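Opposite-strand transcripts are genes that mouse nomenclature names after a neighbour on the other strand of the same locus, by adding os to the symbol of that neighbour, here called the partner. Of 23453 gene symbols in the count table, 168 ended in os or in os and digits, and for 143 of them the symbol without that ending was itself in the table. These 143 transcripts (0.61% of the symbols) and their 137 distinct partners were examined, 5 partners having more than 1 os transcript. The cells were mouse epiblast-like cells (EpiLCs), cultures that stand in for the epiblast around implantation. Naive embryonic stem cells were grown for 48 h in N2B27 with 1% KSR, Activin and Fgf2 to give EpiLCs. EpiLCs kept a further 24 h in basal N2B27 with 1% KSR gave anterior epiblast-like cells (aEpiLCs). EpiLCs kept 24 h in that medium with Activin and the Wnt/β-catenin agonist CHIR99021 gave posterior epiblast-like cells (pEpiLCs). The study describes the aEpiLCs and pEpiLCs as wild type, and the labels list all 3 states as EpiLCs that differ in treatment.

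RNA was sequenced from 9 bulk libraries, 3 per state, with total counts of 20560564 to 23417917, so that 3 counts, taken as the limit of detection, were 0.130 to 0.143 CPM (counts scaled to library size). In bulk RNA, fewer cells of a type and less RNA per cell cannot be told apart. Nothing says that the 3 libraries of a state came from separate cultures, so p-values measure only the spread between these libraries, which may be technical. Most markers fixed for the states followed the labels: Pou5f1 and Fgf5 together were at 956 to 1246 CPM in every library, and T, Mixl1, Eomes and Nanog together were at 726 to 2218 CPM in pEpiLCs and 20.1 to 34.1 CPM elsewhere. Sox2, Sox1, Pax6 and Otx2 together were at 242 to 252 CPM in aEpiLCs, 148 to 166 CPM in EpiLCs and 76.5 to 111 CPM in pEpiLCs, a sum carried by Sox2 and Otx2. Of the neural genes, Pax6 was at most at 2.16 CPM in aEpiLCs, and Sox1 went against the label, with a mean of 0.968 CPM in aEpiLCs and 1.21 CPM in EpiLCs and overlapping libraries. Marker lists of extraembryonic endoderm and feeder fibroblasts summed to at most 10.2 and 24.3 CPM in any library, and that of trophoblast reached 221 to 390 CPM in pEpiLCs through Eomes. Of the other trophoblast genes, Tfap2c was also highest in pEpiLCs (5.96, 1.87 and 2.11 CPM, against at most 1.41 CPM elsewhere), whereas Krt7 was lowest there (1.76 to 2.57 CPM, against at least 2.99 CPM elsewhere). Ascl2 was at 3.49 to 5.01 CPM in EpiLCs and under 1 CPM in the other states, and Elf5, Gata3 and Hand1 stayed under 1 CPM in every library. pEpiLC replicate 1 stood apart, with 321 and 328 of 15793 genes over 4-fold away from the other pEpiLC libraries, where every other pair of libraries of a state had 57 to 75, so calls and levels that it moves are also given without it.

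Antisense transcription is common at mammalian genes. An os transcript can run through its partner and share exonic bases with it, can lie in an intron of the partner, or can leave from the same promoter region in the other direction, as divergent transcripts do. Some antisense RNAs act on the neighbouring gene, others are products of open chromatin at a shared promoter or enhancer, and a few loci named this way encode proteins. In differentiating stem cells the os genes beside homeobox and other developmental genes are the best known of the class.

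In GENCODE M21 (GRCm38) 134 of the 143 os transcripts could be matched, of which 107 were typed as antisense, 10 as protein coding, 8 as processed transcripts and 5 as lincRNAs. Exons of the os transcript and of the partner overlapped in 89 pairs, over 0.4% to 75.9% (median 14.0%) of the exonic bases of the os transcript. In 20 pairs the gene spans overlapped and the exons did not. In 19 pairs the genes were head to head, their starts 19 to 4512 bases apart (median 164), and 6 pairs had another arrangement. Whether the libraries kept the strand of the RNA is not given in the sources used here, so reads from bases that 2 genes share cannot be assigned to one strand with certainty, and values of overlapping pairs carry that limit throughout. Exons of 30 of the matched os transcripts also overlapped another gene.

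The promoter windows of 5 os transcripts, from RefSeq on GRCm38.p6, are given because the results turn on them: Evx1os (chr6:52314783-52315082, minus strand) had the largest rise, Lrp8os2 (chr4:107822973-107823272, minus strand) moved against its partner, Rab26os (chr17:24528001-24528300, plus strand) rose beside a partner that was not called, and Cep83os (chr10:94688564-94688863, minus strand) and Lhx1os (chr11:84525410-84525709, plus strand) start back to back with their partners. Each runs 5′ to 3′ over 300 bases, 250 before and 50 after the start. Capitals mark a match to 1 of 4 motifs searched on both strands, the TCF/LEF core CTTTGAT, the E-box CACGTG, the octamer ATGCAAAT and the SOX core ATTGTT.
Evx1os: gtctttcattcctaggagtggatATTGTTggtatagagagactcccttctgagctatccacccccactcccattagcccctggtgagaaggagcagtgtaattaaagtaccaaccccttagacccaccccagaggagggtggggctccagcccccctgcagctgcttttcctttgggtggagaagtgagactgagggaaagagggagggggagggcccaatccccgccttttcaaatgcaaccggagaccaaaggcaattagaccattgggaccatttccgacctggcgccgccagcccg
Lrp8os2: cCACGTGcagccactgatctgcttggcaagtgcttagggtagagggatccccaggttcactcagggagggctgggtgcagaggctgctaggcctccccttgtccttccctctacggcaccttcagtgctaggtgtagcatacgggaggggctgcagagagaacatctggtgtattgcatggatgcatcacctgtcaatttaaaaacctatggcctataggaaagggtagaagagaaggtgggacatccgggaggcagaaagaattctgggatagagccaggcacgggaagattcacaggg
Rab26os: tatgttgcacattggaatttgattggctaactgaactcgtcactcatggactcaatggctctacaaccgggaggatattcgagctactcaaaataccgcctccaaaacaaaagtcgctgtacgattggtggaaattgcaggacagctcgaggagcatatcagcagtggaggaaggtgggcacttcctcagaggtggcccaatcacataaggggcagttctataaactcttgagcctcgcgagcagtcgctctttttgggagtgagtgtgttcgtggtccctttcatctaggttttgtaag
Cep83os: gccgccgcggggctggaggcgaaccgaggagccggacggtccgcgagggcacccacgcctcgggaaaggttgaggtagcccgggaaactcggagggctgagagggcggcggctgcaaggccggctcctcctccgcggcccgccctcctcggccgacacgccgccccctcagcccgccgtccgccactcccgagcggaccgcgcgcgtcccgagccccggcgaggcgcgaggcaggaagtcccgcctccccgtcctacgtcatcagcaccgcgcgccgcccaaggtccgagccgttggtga
Lhx1os: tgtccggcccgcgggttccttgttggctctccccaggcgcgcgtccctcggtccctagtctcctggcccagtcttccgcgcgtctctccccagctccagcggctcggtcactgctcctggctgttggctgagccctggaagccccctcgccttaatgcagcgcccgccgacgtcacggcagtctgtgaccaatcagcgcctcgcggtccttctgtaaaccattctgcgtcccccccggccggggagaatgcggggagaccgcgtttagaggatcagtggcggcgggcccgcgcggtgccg
The SOX core began 227 bases before the start of Evx1os, and the E-box 249 bases before that of Lrp8os2. Cep83os shared 276 of its 300 bases with a window of Cep83, Lhx1os 225 with a window of Lhx1, and Lrp8os2 238 with a RefSeq start of Lrp8 inside that gene. RefSeq windows existed for 88 os transcripts, and 20 of these overlapped a window of the partner. Over all 107 windows of os transcripts the SOX core was found in 14 (13.1%, against 10.7% of 32851 promoters), the E-box in 9 (8.41% against 7.15%), the octamer in 0 (against 1.74%) and the TCF/LEF core in 0 (against 3.73%). These counts describe letters in the windows and no binding.

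Most os transcripts were close to the limit of detection. None had 0 counts in every library, 23 never passed 3 counts, and the median of the mean CPM over the 9 libraries was 0.184, against 18.3 for the partners. Only 25 os transcripts had a mean of 1 CPM or more and 7 of 10 CPM or more. Per kilobase of exon, the os transcript lay at a median of 3.92% of its partner over 134 pairs, at least 10-fold under it in 89 and above it in 16. Of the abundant ones, Epb41l4aos had 63.4 CPM per kb against 2.32 for Epb41l4a, Rab26os 8.09 against 0.721 for Rab26, and Brip1os 5.16 against 1.94 for Brip1. The levels of Rab26os and Brip1os may include reads of other genes that their exons overlap.

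**Figure D1:**
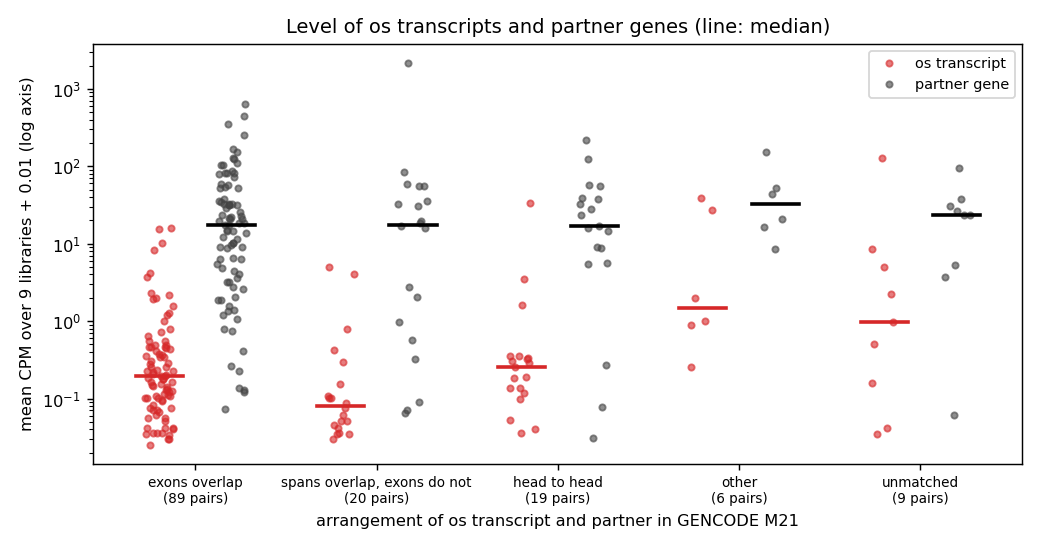
Mean CPM over the 9 libraries plus 0.01 (vertical, log axis) of os transcripts (red) and partners (grey) by arrangement in GENCODE M21, each point a gene and each line a median. Over all pairs the medians are 0.184 CPM for os transcripts and 18.3 CPM for partners.

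The 5 most abundant os transcripts differed little between states. Oip5os1, a long noncoding RNA also known as Cyrano, was at 117, 111 and 108 CPM in EpiLCs, 138, 142 and 127 CPM in aEpiLCs and 119, 139 and 147 CPM in pEpiLCs. The aEpiLC and pEpiLC libraries all lay above the EpiLC ones, by log2 0.28 (SE 0.06) and 0.29 (SE 0.08), which is short of the 2-fold limit used for a call. Slc7a6os, typed as protein coding, was at 44.4, 47.2 and 46.6 CPM in EpiLCs, 33.3, 30.7 and 32.2 CPM in aEpiLCs and 48.1, 35.0 and 36.1 CPM in pEpiLCs. Its aEpiLC libraries all lay under the EpiLC ones, at log2 -0.52 (SE 0.07). Brip1os lies head to head with the helicase gene Brip1 at 177 bases. Its exons also overlap Ints2 and Med13 on the other strand, so its counts may include their reads. Brip1os was at 28.6 to 32.4 CPM in EpiLCs, 34.4 to 34.7 CPM in aEpiLCs and 35.0 to 37.4 CPM in pEpiLCs. No 2 states overlapped, and its log2 fold changes over EpiLCs of 0.21 (SE 0.08, adjusted p = 0.0376) and 0.29 (SE 0.08, adjusted p = 0.0247) were short of 2-fold. Epb41l4aos was at 30.6 to 33.3 CPM in EpiLCs, 21.8 to 23.4 CPM in aEpiLCs and 24.9 to 28.0 CPM in pEpiLCs, with no overlap between any 2 states and none of its differences reaching 2-fold. Rab10os, beside the small GTPase gene Rab10, was at 13.7 to 16.1 CPM in EpiLCs, 14.1 to 16.2 CPM in aEpiLCs and 13.9 to 18.98 CPM in pEpiLCs, so its states overlapped.

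A gene was called where the adjusted p of edgeR's quasi-likelihood test (Benjamini-Hochberg, over all genes tested) was under 0.05 and the absolute log2 fold change at least 1. The test kept 48 of the 143 os transcripts in at least 1 of 3 comparisons and 33 in all. In pEpiLCs against EpiLCs 42 were tested, 6 of them called higher in pEpiLCs and 4 lower, where 15.8% of the 15288 genes tested passed both limits (7.71% upward and 8.13% downward). In aEpiLCs against EpiLCs 39 were tested, 5 of them called higher in aEpiLCs and 1 lower, where 12.5% of 15301 genes passed (7.25% upward and 5.24% downward). In pEpiLCs against aEpiLCs 41 were tested, 3 of them called higher in pEpiLCs and 2 lower, where 7.29% of 15198 genes passed (2.55% upward and 4.74% downward). Without pEpiLC replicate 1, 6 were called higher and 6 lower of 52 tested against EpiLCs, where 15.4% of 15699 genes passed. Against aEpiLCs 3 were then called higher and 2 lower of 45 tested, where 7.41% of 15485 genes passed. With all libraries, the median log2 fold changes of the os transcripts, 0.07, 0.04 and 0.06, lay near the 0.02, 0.00 and 0.01 of all genes. The 2 states had no overlapping libraries in 21 of 42, 17 of 39 and 14 of 41 os transcripts, where this held for 58.7%, 56.4% and 38.7% of all genes tested. The comparisons share libraries, so they are not independent of each other. Where an os transcript was near the limit of detection in the lower state, it passed the filter on low counts through the higher one. This held for the upward calls of Evx1os, Fzd10os, Cep83os and Mypopos, whose adjusted p carries that limit.

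Over the 3 comparisons the calls came from 14 of the 48 os transcripts tested in at least 1. Among all genes tested in at least 1 comparison (15728), 21.6% were called. Of the 14 os transcripts, 1 was called in all 3 comparisons, 5 in 2 and 8 in 1. By the role of the partner they fall into signalling and patterning (Evx1os, Fzd10os, Lrp8os2), secretion and vesicle traffic (Pcsk2os1, Rab26os), epithelial and cell-surface structure (Nphs1os, Kank4os), and others (Abhd11os, Phtf1os, Tmem147os, Mypopos, Cep83os, Chn1os3, Arhgap27os2).

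**Figure D2:**
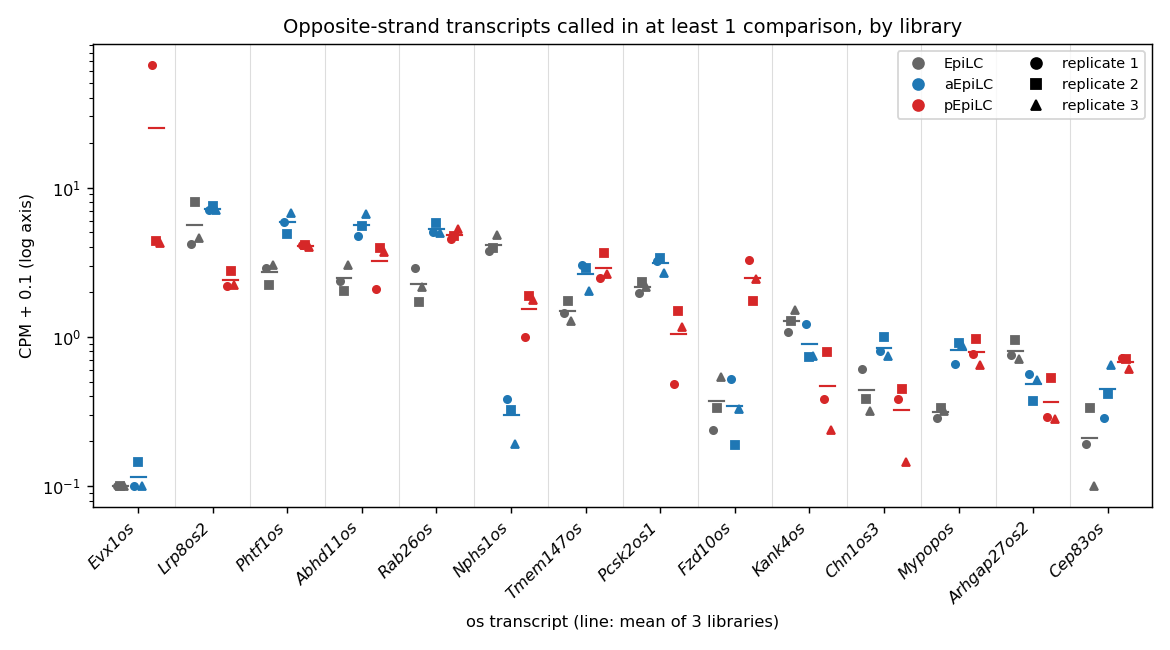
CPM plus 0.1 (vertical, log axis) in each library for the 14 os transcripts called in at least 1 comparison. Colours give the state, marker shapes the replicate and short lines the mean of 3 libraries. Evx1os stands at 65.9 CPM in pEpiLC replicate 1, above every other point.

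Evx1os had the largest rise and was all but confined to pEpiLCs in these libraries. It runs on the minus strand of chr6:52308389-52314832 from a start 1334 bases inside Evx1, a homeobox gene of the posterior primitive streak, and 2.4% of its exonic bases overlap exons of Evx1. It was at 65.9, 4.26 and 4.14 CPM in the pEpiLC libraries (1382, 98 and 90 counts), at 0 counts in the EpiLC libraries and at 0, 1 and 0 counts in the aEpiLC libraries. Every pEpiLC library lay above all others, and replicate 1 lay far above the other 2. Measured against 3 counts in a library, Evx1os was higher in pEpiLCs by at least 175-fold relative to EpiLCs (adjusted p = 0.0182) and by at least 176-fold relative to aEpiLCs (adjusted p = 0.0171). Without pEpiLC replicate 1 these bounds were 29.7-fold (adjusted p = 8.99e-08) and 29.8-fold (adjusted p = 1.67e-06). The call against EpiLCs was lost without EpiLC replicate 1 (adjusted p = 0.0502) or 2 (adjusted p = 0.0512), and that against aEpiLCs without any one aEpiLC library (adjusted p of 0.0784, 0.109 and 0.0814 without replicates 1, 2 and 3). Evx1 itself was at 135, 11.7 and 11.8 CPM in pEpiLCs and listed at 0 elsewhere, at least 373-fold higher than in EpiLCs (82.9-fold without pEpiLC replicate 1). Both genes of the locus were highest in the same library. The levels per kilobase were 2.74 CPM for Evx1os and 6.12 CPM for Evx1 over all libraries, and 0.350 and 1.02 CPM without pEpiLC replicate 1.

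Fzd10os had the largest rise in pEpiLCs after Evx1os among the os transcripts tested. Its partner Fzd10 encodes a Frizzled receptor for Wnt ligands. Fzd10os had no match in GENCODE M21, so whether its exons share bases with Fzd10 was not known. Fzd10os was at 3.20, 1.65 and 2.34 CPM in pEpiLCs, against 0.140, 0.236 and 0.439 CPM in EpiLCs and 0.422, 0.0900 and 0.230 CPM in aEpiLCs. The lowest pEpiLC library lay above all 6 others. The log2 fold change was 3.12 (SE 0.45, adjusted p = 0.00166) over EpiLCs and 3.25 (SE 0.50, adjusted p = 0.00612) over aEpiLCs, and without pEpiLC replicate 1 it was 2.86 and 3.00. Fzd10 rose by log2 3.05 (SE 0.38) and 4.45 (SE 0.50), from 7.88 to 8.53 CPM in EpiLCs to 113, 43.6 and 47.1 CPM in pEpiLCs, and without pEpiLC replicate 1 by 2.47 and 3.87. In aEpiLCs Fzd10 fell by 1.42 on the log2 scale (SE 0.25) against EpiLCs, whereas Fzd10os was not tested there because too few counts were present.

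Lrp8os2 was the single os transcript called in the direction opposite to its partner. Lrp8 encodes an LDL-receptor family receptor for reelin, and Lrp8os2 (chr4:107806033-107823022, minus strand) lies within its span without sharing exonic bases. Lrp8os2 was at 4.10, 7.87 and 4.48 CPM in EpiLCs, 6.99, 7.42 and 6.94 CPM in aEpiLCs and 2.10, 2.65 and 2.11 CPM in pEpiLCs. The pEpiLC libraries were the lowest 3. The log2 fold change was -1.23 (SE 0.29, adjusted p = 0.0114) against EpiLCs and -1.63 (SE 0.17, adjusted p = 0.0013) against aEpiLCs. Without EpiLC replicate 2 the first was -0.88 and no longer reached 2-fold. Lrp8 was at 121, 81.1 and 85.1 CPM in pEpiLCs, 38.9 to 43.6 CPM in EpiLCs and 27.5 to 35.5 CPM in aEpiLCs, so that it rose by log2 1.22 (SE 0.15) and 1.63 (SE 0.17), or by 1.02 and 1.42 without pEpiLC replicate 1. Without that library Lrp8os2 differed by -1.17 and -1.57. A second os transcript of the gene, Lrp8os3, starts 197 bases head to head from Lrp8 and had 13, 17 and 10 counts in pEpiLCs, 2, 9 and 6 in EpiLCs and 6, 4 and 0 in aEpiLCs. Its log2 fold changes of 1.23 (SE 0.51, adjusted p = 0.0877) and 1.95 (SE 0.70, adjusted p = 0.106) pointed the same way as those of Lrp8 but were not called.

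Pcsk2os1 lies beside Pcsk2, the gene of a prohormone convertase of the secretory pathway, and 5.8% of its exonic bases overlap exons of it. It was at 1.87, 2.22 and 2.06 CPM in EpiLCs, 3.14, 3.28 and 2.58 CPM in aEpiLCs and 0.381, 1.39 and 1.06 CPM in pEpiLCs. The 3 states did not overlap, with aEpiLCs highest, pEpiLCs lowest and pEpiLC replicate 1 the lowest of all. It was lower in pEpiLCs than in aEpiLCs by log2 -1.66 (SE 0.41, adjusted p = 0.0332), and by -1.28 without pEpiLC replicate 1. That call was lost without any one aEpiLC library or without pEpiLC replicate 3 (adjusted p of 0.107, 0.121, 0.0894 and 0.0744). In the same comparison Pcsk2 had a log2 fold change of -1.96 and was not called. Pcsk2 was at 1.32 to 1.89 CPM in EpiLCs, 41.1 to 46.2 CPM in aEpiLCs and 1.96, 16.7 and 14.5 CPM in pEpiLCs. It rose by log2 4.80 (SE 0.13, adjusted p = 9.46e-11) in aEpiLCs, where Pcsk2os1 differed by 0.55 (SE 0.22, adjusted p = 0.0502). Pcsk2 also rose in pEpiLCs, by log2 2.86 (SE 0.70, adjusted p = 0.0136), a call lost without EpiLC replicate 1 or 2 (adjusted p of 0.0577 and 0.0612) and 3.36 without pEpiLC replicate 1, and Pcsk2os1 differed by -1.08 (SE 0.41, adjusted p = 0.0655) in the same comparison.

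Rab26os rose in both later states while Rab26, the gene of a GTPase of secretory vesicles, was not called in either. Rab26os (chr17:24528248-24528744, plus strand) lies within the span of Rab26 without exonic overlap, and its exon holds the small nucleolar RNA gene Snord60 on the same strand, so its counts cannot be separated from reads of that gene. It was at 2.80, 1.60 and 2.06 CPM in EpiLCs, 4.93, 5.67 and 4.88 CPM in aEpiLCs and 4.44, 4.65 and 5.15 CPM in pEpiLCs. Every library of both later states lay above the EpiLC ones. The log2 fold change was 1.26 (SE 0.21, adjusted p = 0.000334) in aEpiLCs and 1.16 (SE 0.24, adjusted p = 0.00662) in pEpiLCs, the latter 0.99 without EpiLC replicate 2. Rab26 was at 2.31 to 2.90 CPM in EpiLCs and 1.43 to 2.29 CPM in the other libraries, with log2 fold changes of -0.44 (SE 0.24, adjusted p = 0.153) and -0.68 (SE 0.22, adjusted p = 0.0388).

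Nphs1os was the only os transcript called in all 3 comparisons. Nphs1 encodes nephrin, an adhesion protein of the kidney filtration barrier, and 44.6% of the exonic bases of Nphs1os (chr7:30462164-30465591, minus strand) overlap its exons, so reads of the pair are hard to separate. Nphs1os was at 3.64, 3.82 and 4.70 CPM in EpiLCs, 0.282, 0.225 and 0.0920 CPM in aEpiLCs and 0.906, 1.78 and 1.65 CPM in pEpiLCs. The 3 states did not overlap, with EpiLCs highest and aEpiLCs lowest. The log2 fold change was -4.31 (SE 0.34, adjusted p = 4.28e-07) in aEpiLCs and -1.46 (SE 0.29, adjusted p = 0.00563) in pEpiLCs against EpiLCs, and 2.83 (SE 0.47, adjusted p = 0.00866) in pEpiLCs against aEpiLCs. All 3 calls held without any one library. Nphs1 kept the same order, at 28.4 to 39.2 CPM in EpiLCs, 1.75 to 2.29 CPM in aEpiLCs and 3.96 to 9.61 CPM in pEpiLCs, with log2 fold changes of -4.05, -2.20 and 1.83 (the latter 2 being -1.90 and 2.14 without pEpiLC replicate 1, and those of Nphs1os -1.21 and 3.08). The last of these was lost without any one aEpiLC library (adjusted p of 0.0554, 0.0622 and 0.068).

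**Figure D3:**
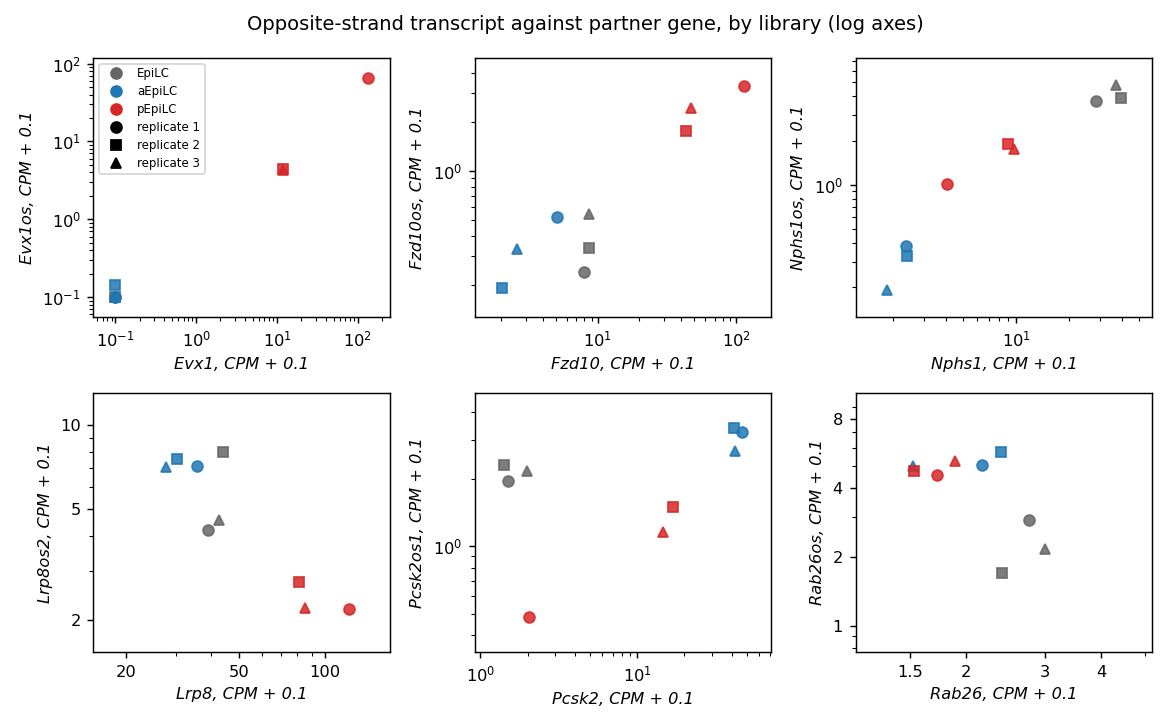
CPM plus 0.1 of the os transcript (vertical) against its partner (horizontal), both on log axes, in each of the 9 libraries for 6 pairs. Colours give the state and marker shapes the replicate, and in the Evx1 panel the EpiLC points lie under the aEpiLC ones at 0. For Lrp8os2 the 3 pEpiLC libraries sit at the lower right, and for Nphs1os the libraries run from aEpiLCs at the lower left to EpiLCs at the upper right.

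Kank4os lies within the span of Kank4, a gene of an ankyrin-repeat protein tied to the actin cytoskeleton, and shares no exonic bases with it. Kank4os was at 0.979, 1.18 and 1.41 CPM in EpiLCs and 0.286, 0.695 and 0.138 CPM in pEpiLCs, with no overlap, whereas the aEpiLC libraries, at 1.13, 0.630 and 0.644 CPM, overlapped both. It was lower in pEpiLCs than in EpiLCs by log2 -1.62 (SE 0.51, adjusted p = 0.0342), a call lost without any one EpiLC library or without pEpiLC replicate 3 (adjusted p of 0.0673, 0.0927, 0.115 and 0.0776). Kank4 fell in the same comparison by 2.03 on the log2 scale (SE 0.30).

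A group of 4 os transcripts rose in aEpiLCs beside partners that were not called there. Abhd11os, typed as a transcribed pseudogene beside the hydrolase gene Abhd11, was at 2.28, 1.93 and 2.94 CPM in EpiLCs and 4.65, 5.44 and 6.58 CPM in aEpiLCs, with no overlap and a log2 fold change of 1.22 (SE 0.21, adjusted p = 0.000371). In pEpiLCs it was at 2.00, 3.82 and 3.58 CPM, which overlapped EpiLCs, and Abhd11 had a log2 fold change of -0.44 (SE 0.08) in aEpiLCs. Phtf1os, which also overlaps Rsbn1 on the other strand, was at 2.80, 2.12 and 2.94 CPM in EpiLCs and 5.82, 4.77 and 6.67 CPM in aEpiLCs, a log2 fold change of 1.13 (SE 0.20, adjusted p = 0.000406) that was 1.00 and just short of 2-fold without EpiLC replicate 2. Its pEpiLC libraries, at 3.91 to 4.04 CPM, lay between without overlap, at log2 0.62 (SE 0.20, adjusted p = 0.0341) over EpiLCs. Mypopos, beside Mypop, a gene of a Myb-related repressor, had 4, 5 and 5 counts in EpiLCs, 12, 18 and 17 in aEpiLCs and 14, 20 and 12 in pEpiLCs. It rose in both later states, by log2 1.72 (SE 0.43, adjusted p = 0.00526) and 1.70 (SE 0.38, adjusted p = 0.00971), where Mypop differed by 0.11 and -0.23 and was not called. The second of these had an adjusted p of 0.0543 by DESeq2. Chn1os3, with 11, 6 and 5 counts in EpiLCs and 15, 20 and 14 in aEpiLCs, was called at log2 1.14 (SE 0.43, adjusted p = 0.042), but not by DESeq2 (adjusted p = 0.122), not in a fit of all 9 libraries (0.111), not without the filter on low counts (0.0757), and not without aEpiLC replicate 1, 2 or 3 (0.0742, 0.146 and 0.0587) or EpiLC replicate 2 or 3 (0.134 and 0.17).

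The remaining 3 os transcripts were called in pEpiLCs against EpiLCs. Tmem147os, beside the gene of an endoplasmic reticulum membrane protein, was at 1.35, 1.65 and 1.19 CPM in EpiLCs and 2.38, 3.52 and 2.53 CPM in pEpiLCs, with no overlap and a log2 fold change of 1.03 (SE 0.26, adjusted p = 0.0147). The call was lost without EpiLC replicate 1 or 3 or pEpiLC replicate 2 (adjusted p of 0.0539, 0.0649 and 0.0516), and Tmem147 differed by -0.07 (SE 0.11). Tmem147os had no match in GENCODE M21, so its overlap with Tmem147 was not known. Cep83os, whose start lies 78 bases head to head from that of the centrosomal gene Cep83, had 2, 5 and 0 counts in EpiLCs and 13, 14 and 11 in pEpiLCs, a log2 fold change of 2.39 (SE 0.70, adjusted p = 0.0267). It was not called without EpiLC replicate 1 or 3 or pEpiLC replicate 2 or 3 (adjusted p of 0.0904, 0.0542, 0.0641 and 0.0513). Cep83, at 63.8 to 65.1 CPM in EpiLCs and 52.5 to 55.4 CPM in pEpiLCs, differed by -0.23 (SE 0.06). Arhgap27os2, of whose exonic bases 75.9% overlap exons of Arhgap27, had 14, 18 and 14 counts in EpiLCs and 4, 10 and 4 in pEpiLCs, a log2 fold change of -1.33 (SE 0.44, adjusted p = 0.04). It was not called by DESeq2 (adjusted p = 0.134), without the filter (0.0696), or without pEpiLC replicate 1 or 3 (0.0859 and 0.121) or EpiLC replicate 1, 2 or 3 (0.0833, 0.131 and 0.085).

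Set side by side over all tested pairs, an os transcript and its partner were both called in 5 of 42 pairs in pEpiLCs against EpiLCs, 4 in the same direction (Evx1os, Fzd10os, Nphs1os, Kank4os) and 1 in the opposite one (Lrp8os2). In aEpiLCs against EpiLCs both were called in 1 of 39 pairs (Nphs1os, same direction), and in pEpiLCs against aEpiLCs in 4 of 41, 3 in the same direction (Evx1os, Fzd10os, Nphs1os) and 1 in the opposite one (Lrp8os2). Only the os transcript was called in 5, 5 and 1 pairs and only the partner in 3, 3 and 1. Among all other opposite-strand neighbours in the annotation both genes were called in 66 of 2759, 45 of 2746 and 18 of 2749 pairs. Of these, 62, 40 and 18 were in the same direction and 4, 5 and 0 in the opposite one. Only the first gene along the chromosome was called in 182, 148 and 83 neighbour pairs, and only the second in 204, 163 and 70. The signs of the 2 log2 fold changes were the same in 50%, 51.3% and 70.7% of pairs, where among all other opposite-strand neighbours in the annotation (2759, 2746 and 2749 pairs) they were the same in 58.2%, 58.8% and 58.6%. Pearson's r between the log2 fold changes of os transcript and partner was 0.88, 0.53 and 0.93, with Spearman's rho of 0.27, 0.21 and 0.60. These are descriptions across pairs that share the same libraries and, where exons overlap, reads. The fitted log2 fold changes of Evx1os and Evx1, with EpiLC libraries at 0, depend on how the fit treats zeros and are not bounds. Without the Evx1os pair r was 0.37 in pEpiLCs against EpiLCs and 0.72 in pEpiLCs against aEpiLCs, and without pEpiLC replicate 1 it was 0.83 and 0.90. Among the other opposite-strand neighbours r was 0.33, 0.29 and 0.32, and rho was 0.28, 0.26 and 0.24.

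**Figure D4:**
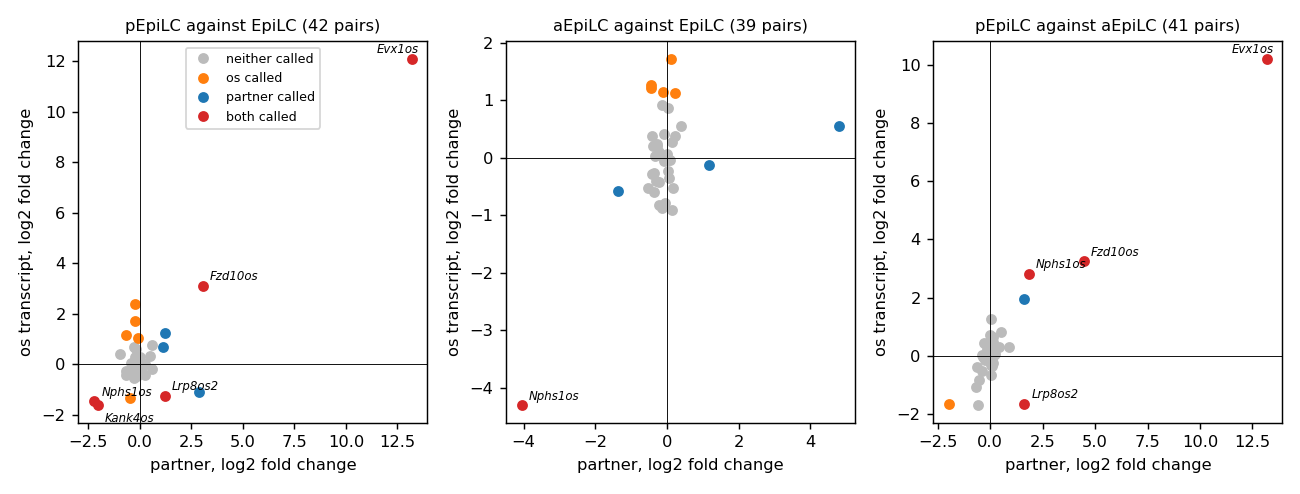
Log2 fold change of the os transcript (vertical) against that of its partner (horizontal) for the 42, 39 and 41 pairs tested in each comparison, coloured by which of the pair was called. Pairs with both called are named, Evx1os lies far to the upper right in both panels with pEpiLCs, and Lrp8os2 is the named pair at a positive partner value and a negative os value.

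The log2 ratio of os transcript to partner (CPM plus 0.5) did not overlap between the states in 17 of 42 pairs (40.5%) for pEpiLCs against EpiLCs, 18 of 39 (46.2%) for aEpiLCs against EpiLCs and 8 of 41 (19.5%) for pEpiLCs against aEpiLCs. Among all opposite-strand neighbours this held for 47.7%, 47% and 30.1%. With 3 libraries against 3, an exact permutation test of a single ratio cannot go below p = 0.1 (two-sided), so no single pair could reach 0.05. The mean log2 ratio of Lrp8os2 to Lrp8 was -2.87 in EpiLCs, -2.04 in aEpiLCs and -5.09 in pEpiLCs (-4.86 without pEpiLC replicate 1). That of Pcsk2os1 to Pcsk2 was 0.33, -3.64 and -2.64, the last being -1.48, -3.18 and -3.27 in the single pEpiLC libraries and -3.23 on average without replicate 1. That of Rab26os to Rab26 was -0.25, 1.23 and 1.31. The EpiLC libraries did not overlap those of either later state for any of these 3 pairs.

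The 11 partners in a list of 148 developmental regulators were Dlx4, Dlx6, Evx1, Foxd2, Gata6, Hoxb3, Irx3, Lhx1, Otx2, Wt1 and Zeb2, and apart from Evx1os their os transcripts were too low to be tested. Those described next were chosen after their values were seen. Zeb2os, beside the gene of a zinc-finger factor of epithelial-mesenchymal transition, had 0 counts in the EpiLC libraries, 7, 3 and 13 in aEpiLCs and 7, 7 and 5 in pEpiLCs, while Zeb2 rose by log2 3.76 (SE 0.25) and 4.32 (SE 0.38). Exons of Zeb2 overlap 32.8% of the exonic bases of Zeb2os, so its counts may include reads of Zeb2. Wt1os, whose start lies 19 bases head to head from that of the zinc-finger gene Wt1, had 10, 12 and 18 counts in EpiLCs, 1, 9 and 7 in aEpiLCs and 0, 1 and 4 in pEpiLCs. Its EpiLC libraries lay above the rest, and Wt1 fell by 1.25 on the log2 scale (SE 0.16) in aEpiLCs and by 3.91 (SE 0.18) in pEpiLCs against EpiLCs. Lhx1os, 125 bases head to head from the LIM-homeobox gene Lhx1, had 8 counts and Gata6os, beside the endoderm factor gene Gata6, 6 counts in pEpiLC replicate 1 and 0 in all other libraries. In that library Lhx1 was at 208 CPM and Gata6 at 46.5 CPM, against 1.26 and 1.33 CPM (Lhx1) and 0.0869 and 0.138 CPM (Gata6) in pEpiLC replicates 2 and 3. Hoxb3os had 12, 3 and 5 counts in pEpiLCs, 3, 0 and 0 in EpiLCs and 0 in aEpiLCs. Of its exonic bases 53.6% overlap exons of Hoxb3, and its exons also overlap Hoxb2 on the other strand. Otx2os1 had 0 to 7 counts in any library beside 64.8 to 149 CPM of Otx2, the homeobox gene of the anterior epiblast.

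Among os transcripts beside genes of Wnt signalling and DNA methylation, also chosen after their values were seen, Lef1os1 was the highest. It was at 8.39, 9.47 and 10.2 CPM in EpiLCs, 7.74, 8.19 and 6.21 CPM in aEpiLCs and 9.39, 6.78 and 9.65 CPM in pEpiLCs, and its log2 fold changes against EpiLCs of -0.34 (SE 0.14, adjusted p = 0.0662) and -0.10 (SE 0.18, adjusted p = 0.669) were not called. Lef1, a TCF/LEF factor of the Wnt pathway, was at 79.5 to 112 CPM and was not called either. Notumos had 8, 3 and 4 counts in pEpiLCs and 0 to 2 in all other libraries, while Notum, the gene of a secreted Wnt inhibitor, rose in pEpiLCs by log2 2.67 (SE 0.58, adjusted p = 0.00838). Exons of Notum overlap 26.6% of the exonic bases of Notumos, so its counts may include reads of Notum. Dnmt3bos stayed at 2 to 11 counts in every library beside 744 to 2821 CPM of the DNA methyltransferase gene Dnmt3b.

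Of the 34 os transcripts tested and never called, 32 had absolute log2 fold changes under 1 in every comparison, and Lrp8os3 had the largest, 1.95. Among the 89 pairs with overlapping exons, the 38 os transcripts with under 10% of their exonic bases shared with the partner included 8 that were tested and 5 that were called in at least 1 comparison, the 45 with 10% to under 50% included 16 and 2, and the 6 with 50% or more included 4 and 1. Of 15728 genes tested in at least 1 comparison, 21.6% were called in at least 1. The counts by tier are too small to rank.

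The partners and other long noncoding RNAs give the setting. Of 121, 117 and 121 partners tested, 13 were higher and 13 lower in pEpiLCs than in EpiLCs, 8 higher and 9 lower in aEpiLCs than in EpiLCs, and 8 higher and 7 lower in pEpiLCs than in aEpiLCs. These were 21.5%, 14.5% and 12.4% of the partners tested, where 15.8%, 12.5% and 7.29% of all genes were called, and without pEpiLC replicate 1 the first was 19.7% and the last 15.7%, against 15.4% and 7.41% of all genes. Of 49 other long noncoding RNAs listed for stem cells and imprinted loci, 42 were tested in pEpiLCs against EpiLCs and 8 called, all lower (6 without pEpiLC replicate 1), 43 in aEpiLCs against EpiLCs with 2 higher and 6 lower, and 42 in pEpiLCs against aEpiLCs and 6 called, all lower (5 without pEpiLC replicate 1, where Meg3, Rian and Mirg no longer reached 2-fold and Sox1ot and Mir124a-1hg were added). These were 19%, 18.6% and 14.3% of those tested. In pEpiLCs against EpiLCs, Platr3, Platr10 and Platr20 were not called without any one EpiLC library, nor Platr14 without EpiLC replicate 2. In pEpiLCs against aEpiLCs, Sox2ot, Rian, H19 and Miat were not called without any one aEpiLC library. Meg3 was not called without aEpiLC replicate 1 or 2, which left only Mirg of the 6. The other long noncoding RNAs higher in aEpiLCs than in EpiLCs were Sox1ot and Sox2ot, the transcripts overlapping Sox1 and Sox2. Sox1ot was at 0.845, 0.630 and 0.460 CPM there against 0.233, 0.141 and 0.176 CPM in EpiLCs, a log2 fold change of 1.78 (SE 0.48, adjusted p = 0.00788), and Sox2ot had one of 1.25 (SE 0.37, adjusted p = 0.0138, up to 0.0696 in a fit of all 9 libraries or without EpiLC replicate 2 or aEpiLC replicate 3). Lncenc1, a long noncoding RNA of naive stem cells, was lower in both later states, by log2 -2.06 (SE 0.10) in aEpiLCs and -2.36 (SE 0.16) in pEpiLCs.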

How the data were processed

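Bulk RNA-seq libraries of EpiLCs, aEpiLCs and pEpiLCs (3 each) were used. The authors mapped paired-end reads to GRCm38 with STAR 2.7.9a and deposited expected counts per gene symbol estimated with RSEM 1.3.1, without normalization. Annotation, strandedness and read cleaning are not given in the sources used here. Total counts were 20560564 to 23417917 per library, and 3 counts were 0.130 to 0.143 CPM.

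Expected counts were rounded to whole numbers. Members were the symbols ending in os or os and digits whose symbol without the ending was also listed. The members and lists were chosen with earlier results of these data known. Arrangements came from GENCODE M21 on GRCm38, and head to head means opposite strands, no overlap and starts at most 5000 bases apart. For each comparison all genes of its 6 libraries were fitted in R 4.3.3 with edgeR 4.0.16 (TMM, filterByExpr, quasi-likelihood test, Benjamini-Hochberg). A call needed an adjusted p under 0.05 and a log2 change of 1 or more in size. The scripts were tested on simulated data with 200 changed genes. A fold against a state with at most 3 counts in each library is a lower bound against 3 counts in a library. CPM were scaled by TMM factors of the 9 libraries together, and ratios used a pseudocount of 0.5 CPM.

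Values by library are given for the 6 called members with the largest change per comparison and direction at a mean of 1 CPM or more, the 5 most abundant members, and members at 1 CPM or more in a state mean beside a developmental regulator. Every other called member is described more briefly, and others are named as chosen after their values were seen. Alternatives were RLE scaling, DESeq2 1.42.0, the likelihood ratio test, no filter, at least 10 counts in every library, all 9 libraries in one fit, the replicate number as a block, adjusted p alone, and each library left out. For partners and other long noncoding RNAs, leaving out pEpiLC replicate 1 was chosen after seeing the data.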

Additional observations from a re-analysis of the deposited data

How the results depend on the processing

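Leaving out 1 library at a time, the os transcripts called numbered 3 to 6 higher and 2 to 6 lower in pEpiLCs than in EpiLCs (6 and 4 with all libraries), 3 to 5 higher and 1 to 3 lower in aEpiLCs than in EpiLCs (5 and 1), and 2 to 3 higher and 1 to 2 lower in pEpiLCs than in aEpiLCs (3 and 2). Called in every such fit were Fzd10os, Mypopos and Nphs1os in the first comparison, Abhd11os, Mypopos, Nphs1os and Rab26os in the second, and Fzd10os, Lrp8os2 and Nphs1os in the third. With at least 10 counts in every library, which by construction tests fewer genes, the counts were 2 higher and 2 lower, 3 higher and 0 lower, and 0 higher and 1 lower. Without the filter 8 were lower in pEpiLCs and 2 lower in aEpiLCs than in EpiLCs. On adjusted p alone 8 were higher and 3 lower in aEpiLCs than in EpiLCs, and by the likelihood ratio test 5 were higher in pEpiLCs than in aEpiLCs. The cause of the changes without the filter and with the likelihood ratio test was not tested. With the replicate number as a block 2 were lower in aEpiLCs than in EpiLCs, and the other counts of calls moved by less than 1.5 times. The correlation of deviations between libraries of the same number was -0.062 to 0.176 over the 3 comparisons and not above 0.1 in every pair. The main fits therefore took no pairing. In pEpiLCs against aEpiLCs, however, it was 0.176, 0.121 and 0.064 for replicates 1, 2 and 3. Each of these lay above every value between libraries of different number in that comparison (-0.141 to 0.059). Whether libraries of these 2 states were paired is not known. RLE scaling and one fit of all 9 libraries moved none of the 6 counts by over 1.5 times, nor did DESeq2. Without the Evx1os pair, chosen after seeing the data, Pearson's r was 0.367 and 0.722 in place of 0.882 and 0.932. Small differences that changed sign were Rab10os in aEpiLCs against EpiLCs (-0.0176 without EpiLC replicate 3, up to 0.111), and in pEpiLCs against aEpiLCs Tmem147os (-0.0188 without aEpiLC replicate 3 and -0.0449 without pEpiLC replicate 2, up to 0.257) and Oip5os1 (0.0037, 0.0257 and 0.0801 without aEpiLC replicate 1, aEpiLC replicate 2 and pEpiLC replicate 1, down to -0.0733). Depth limits most members, since 95 of 143 were never tested.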

Other observations

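Among the symbols with the os ending whose partner was not listed, Cdr1os, the long noncoding RNA that hosts the circular RNA of the Cdr1 locus, had 0, 3 and 2 counts in EpiLCs, 7, 8 and 4 in aEpiLCs and 3, 16 and 1 in pEpiLCs. The aEpiLC libraries lay above the EpiLC ones, the pEpiLC libraries overlapped both, and too few counts were present for a test. Ict1os had 4 to 12 counts and Snhg7os 6 to 15 counts over the 9 libraries. Some os transcripts lay above partners that were themselves near 0: Foxd2os had 2 to 11 counts, at 384% of the level of Foxd2 per kilobase.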
